A study of Mus musculus with 48 samples.

Results

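Immediate early genes are transcribed within minutes of synaptic activity, from promoters that hold preloaded activators such as CREB and serum response factor. Most encode transcription factors that switch on a second set of genes, whose products act at synapses. In the hippocampus they are used as a readout of which neurons were recently active, and several of them are needed for long-lasting memory. Setd1b is an H3K4 methyltransferase of the COMPASS family, which places the methyl marks that flank active promoters.

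The genes described are 10 activity-induced genes: the transcription factors Fos, Fosb, Junb, Egr1, Egr2, Egr3, Npas4 and Nr4a1, the synaptic protein gene Arc and the neurotrophin gene Bdnf. They were picked by symbol, mapped from the Ensembl gene IDs of the count tables, and are 10 of 48869 gene IDs. All 10 passed the filter on low counts in both kinds of RNA. The samples came from the hippocampal CA region of C57BL/6J mice aged 4 to 6 months, either Setd1b cKO or Control. Gene counts were made from neuron RNA (3 libraries of each genotype) and from RNA of the whole CA (6 of each). Peak lists from sorted neuronal nuclei covered H3K4me3 and H3K4me1 (4 of each genotype), H3K27ac (4 cKO and 3 Control) and H3K9ac (3 cKO and 4 Control). The sources used here give neither the driver of the deletion nor the sex, nor whether animals were pooled, so p-values measure only the spread between these libraries.

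Depth ran from 55.7 to 69.1 M counts in neuron RNA and from 14.9 to 20.1 M in whole CA RNA. The library labels were checked on Setd1b itself, counted over the whole gene. It was called higher in the whole CA libraries labelled cKO (log2 fold change 0.59, SE 0.11, edgeR adjusted p = 0.00415), against the label, and was 0.25 in neuron RNA (SE 0.13, adjusted p = 0.361). The values were 60.2 to 71.6 CPM (counts scaled to library size) against 47.8 to 65.5 CPM in neuron RNA, and 53.2 to 68.0 against 29.3 to 54.6 CPM in whole CA RNA. Such counts cannot check a deletion of part of the gene, so every direction below is that of the library labels. In whole CA RNA, cKO 6 and Control 4 held Xist and hardly any Y-linked transcript, and the other 10 libraries the reverse. Every neuron library held both. Microglial markers were nearly absent from neuron RNA, with 5 of 5 detected at a summed 8.12 to 9.70 CPM against 233 to 322 CPM in whole CA RNA. In bulk RNA, fewer cells of a type and less RNA per cell cannot be told apart.

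Promoters of 4 of the genes are shown because they carry 2 contrasts reported below: Nr4a1 followed Fos closely between libraries (r = 0.93) and Npas4 less so (r = 0.24, a difference that was not tested), and the H3K4me3 domains of Npas4 and Nr4a1 were shorter in cKO while those of Fos and Junb did not pass the test. Each run holds the 250 bases before the RefSeq start (GRCm38.p6), 5′ to 3′ on the gene's strand. Capitals mark TGACG or its reverse complement CGTCA, the core of the cAMP response element that CREB binds.
Fos, chr12:85473640-85473889, plus strand: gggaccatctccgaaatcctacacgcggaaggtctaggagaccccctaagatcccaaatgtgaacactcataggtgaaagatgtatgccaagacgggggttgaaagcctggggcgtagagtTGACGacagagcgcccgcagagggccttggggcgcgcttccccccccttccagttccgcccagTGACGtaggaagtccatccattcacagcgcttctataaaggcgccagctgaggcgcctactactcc
Junb, chr8:84978749-84978998, minus strand: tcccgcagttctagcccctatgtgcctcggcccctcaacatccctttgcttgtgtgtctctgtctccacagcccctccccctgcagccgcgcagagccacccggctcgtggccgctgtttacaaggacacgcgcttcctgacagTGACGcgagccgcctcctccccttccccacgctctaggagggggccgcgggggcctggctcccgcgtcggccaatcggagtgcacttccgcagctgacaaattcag
Npas4, chr19:4989972-4990221, minus strand: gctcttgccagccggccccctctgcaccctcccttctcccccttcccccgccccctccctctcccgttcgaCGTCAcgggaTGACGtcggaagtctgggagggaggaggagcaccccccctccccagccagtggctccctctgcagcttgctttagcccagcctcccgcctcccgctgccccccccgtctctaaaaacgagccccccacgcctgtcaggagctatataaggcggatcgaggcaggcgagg
Nr4a1, chr15:101266596-101266845, plus strand: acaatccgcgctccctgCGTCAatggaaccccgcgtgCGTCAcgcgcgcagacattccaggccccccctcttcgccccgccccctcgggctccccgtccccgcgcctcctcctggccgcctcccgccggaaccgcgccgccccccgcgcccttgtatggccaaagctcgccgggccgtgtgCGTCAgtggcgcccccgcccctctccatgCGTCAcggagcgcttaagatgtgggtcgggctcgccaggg

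TGACG on either strand was found before a start of 7 of the 7 member genes in the table (Fos, Fosb, Junb, Egr2, Npas4, Nr4a1 and Bdnf), in 9 of their 17 starts. The same search found it in 17.8% of all 32851 promoters and 19.8% of 27025 genes. Nr4a1 held 4 copies, Fos and Npas4 2 each, and Junb and Fosb 1 each. Of the 7 Bdnf starts only that at position 109692436 of chromosome 2 held a copy, 30 bases before it. The full palindrome TGACGTCA was in 0 of the 17 windows and in 1.55% of all promoters. A serum response element was found before 4 of 5 Egr2 starts and in no other member's window, against 1.47% of all promoters. Windows of the Egr2 starts at 67537869, 67537870 and 67537930 overlap and hold the same serum response element and the same TGACG copies. Elements more than 250 bases before a start were not searched. Arc, Egr1 and Egr3 have no entry in the table. A match of letters is a description and not a binding site.

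Whether the genotype changed the level of these genes was asked first in neuron RNA. None of the 10 passed edgeR's quasi-likelihood test at an adjusted p under 0.05, where 2.75% of 19622 genes did. DESeq2 also called 0 of them, where it called 840 of 18090 genes. At an unadjusted p under 0.05 there were 3, Junb, Arc and Npas4, all lower in cKO, against 17.2% of all genes. The log2 fold change was below 0 for 9 of the 10, with a median of -0.28 against 0.02 over all genes tested. The cKO group was uneven in most members, with cKO 1 the lowest cKO library in 8 of the 10 and cKO 3 the highest in 9, as the plot of counts by library shows.

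**Figure D1:**
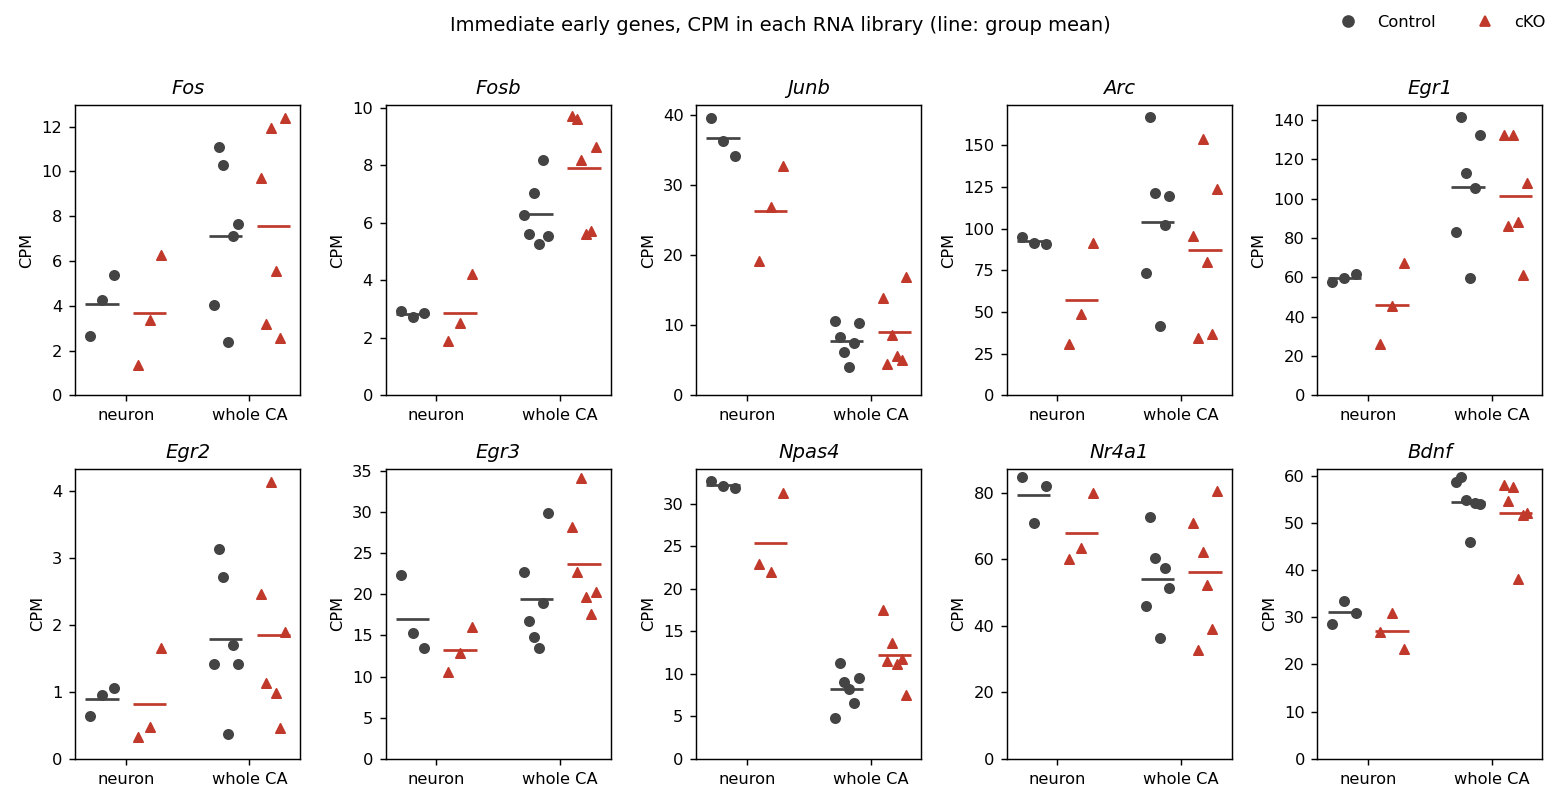
CPM of each gene in every RNA library, TMM-scaled within neuron RNA and within whole CA RNA (so levels are not compared between them), with a line at each group's mean. In neuron RNA the controls of Arc lie between 90.6 and 95.1 CPM while the cKO libraries run from 30.9 to 91.3. In whole CA RNA the genotypes overlap for all 10 genes.

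Arc, whose protein drives internalisation of AMPA receptors and forms capsids that carry RNA, was at 95.1, 91.5 and 90.6 CPM in neuron Controls 1 to 3. In cKO 1 to 3 it was at 30.9, 48.6 and 91.3 CPM. The controls spanned 1.05-fold and the cKO libraries 2.96-fold, and cKO 3 fell inside the control range. The log2 fold change was -0.70 (SE 0.30, adjusted p = 0.278). Without cKO 3 it was -1.22 (SE 0.17, adjusted p = 0.00289), and without cKO 1 it was -0.40 (adjusted p = 0.504).

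Junb encodes an AP-1 subunit that pairs with Fos proteins. Its controls held 39.6, 36.3 and 34.2 CPM and its cKO libraries 19.2, 26.8 and 32.8 CPM. The groups did not overlap, as for 12.4% of all genes in this direction. Its log2 fold change was -0.48 (SE 0.17, adjusted p = 0.185).

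Npas4, a neuron-restricted factor that answers calcium entry and shapes inhibitory synapses, was at 32.7, 32.1 and 31.9 CPM in the neuron controls. In cKO it was at 22.97, 22.01 and 31.3 CPM, with cKO 3 just under the lowest control. The groups again did not overlap, with a log2 fold change of -0.34 (SE 0.13, adjusted p = 0.228). Without cKO 3, Junb (-0.67, adjusted p = 0.0374) and Npas4 (-0.52, adjusted p = 0.027) passed the test together with Arc, so the count of called members rose from 0 to 3. In that fit 479 of 19867 genes were called. Without cKO 1 the Junb estimate was -0.30 (adjusted p = 0.339). No other library left out made a call.

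Egr1, a zinc-finger factor widely used as an activity marker, held 57.7, 59.5 and 61.8 CPM in the neuron controls and 25.96, 45.4 and 67.2 CPM in cKO. The lowest and the highest of the 6 values were thus both cKO libraries. Egr3, which Egr1 can induce, was at 22.3, 15.3 and 13.4 CPM in controls and at 10.6, 12.9 and 16.01 CPM in cKO. Egr2, the third of these factors present, had only 22 to 93 counts per library, 0.645 to 1.06 CPM in controls and 0.33 to 1.66 CPM in cKO. Their log2 fold changes were -0.37 (SE 0.26), -0.37 (SE 0.20) and -0.13 (SE 0.51), with adjusted p from 0.383 to 0.915. Egr1 was -0.09 without cKO 1 and -0.74 without cKO 3, and Egr3 ran from -0.53 without cKO 3 to -0.13 without Control 1.

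Fos and Fosb encode the partners of Jun proteins in AP-1. Fos was at 2.66, 4.24 and 5.38 CPM in neuron controls and at 1.37, 3.38 and 6.26 CPM in cKO, so the genotypes overlapped fully. Fosb was at 2.93, 2.71 and 2.85 CPM in controls and at 1.89, 2.51 and 4.21 CPM in cKO. Their log2 fold changes were -0.17 (SE 0.44) and 0.01 (SE 0.25). The 95% interval of Fos, -1.16 to 0.81, is wider than a doubling in the downward direction.

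Nr4a1, an orphan nuclear receptor, held 84.6, 70.9 and 82.1 CPM in neuron controls against 60.1, 63.4 and 79.8 CPM in cKO. Bdnf, which signals through TrkB, held 28.7, 33.5 and 30.9 CPM against 26.8, 30.96 and 23.3 CPM. Bdnf and Npas4 were the members in which cKO 1 was not the lowest cKO library, which was cKO 3 in Bdnf and cKO 2 in Npas4. Their log2 fold changes were -0.22 (SE 0.12) and -0.20 (SE 0.12), with adjusted p of 0.374 and 0.421.

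RNA of the whole CA gave 0 calls among the 10 genes, where 4.17% of 15362 genes were called. At an unadjusted p under 0.05 there was 1, Npas4, against 15.7% of all genes, and DESeq2 called that gene alone of the members (adjusted p = 0.04996). Over all genes DESeq2 called 891 of 14766. The log2 fold change was above 0 for 7 and below 0 for 3, with a median of 0.07 against -0.0027 over all genes. The genotypes overlapped for every member, and 3.08% of all genes did not overlap.

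Npas4 ran from 4.79 to 11.3 CPM in whole CA controls (median 8.65, n = 6) and from 7.56 to 17.5 CPM in cKO (median 11.6, n = 6). Its lowest value was Control 1 and its highest cKO 1, and 5 of the 6 cKO libraries lay at or above 11.1 CPM, a level that 1 control reached. Its log2 fold change of 0.56 (SE 0.19) had an adjusted p of 0.114 by edgeR. The estimate was 0.67 with an adjusted p of 0.0314 without cKO 6, and 0.67 with 0.0494 without both libraries that held Xist. Counts were 71 to 297 per library.

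Fos ran from 2.39 to 11.1 CPM in controls (median 7.39) and from 2.54 to 12.4 CPM in cKO (median 7.63). Arc ran from 41.6 to 167 CPM in controls (median 111) and from 34.2 to 154 CPM in cKO (median 87.9). Junb ran from 4.04 to 10.6 CPM in controls (median 7.85) and from 4.44 to 16.9 CPM in cKO (median 7.10). In each of these genes the libraries of 1 genotype differed from one another several-fold while the genotypes covered much the same range. Their log2 fold changes of 0.08 (SE 0.37), -0.26 (SE 0.33) and 0.22 (SE 0.30) were smaller than their standard errors.

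Egr1 held 59.5 to 142 CPM in controls (median 109) and 61.2 to 132 CPM in cKO (median 98.1). Egr2 held 0.368 to 3.14 CPM in controls (median 1.56) and 0.458 to 4.14 CPM in cKO (median 1.51), from as few as 6 counts. Egr3 held 13.5 to 29.9 CPM in controls (median 17.8) and 17.5 to 34.0 CPM in cKO (median 21.5). None of these factors separated the genotypes, with log2 fold changes of -0.06 (SE 0.19), 0.01 (SE 0.44) and 0.29 (SE 0.18).

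Fosb held 5.27 to 8.17 CPM in controls (median 5.95) and 5.61 to 9.70 CPM in cKO (median 8.39). Nr4a1 held 36.4 to 72.7 CPM in controls (median 54.4) and 32.8 to 80.6 CPM in cKO (median 57.1). Bdnf held 45.9 to 59.6 CPM in controls (median 54.5) and 38.01 to 57.9 CPM in cKO (median 53.4). Bdnf was the steadiest of the 10, and its 95% interval for the log2 fold change, -0.26 to 0.12, the narrowest.

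**Figure D2:**
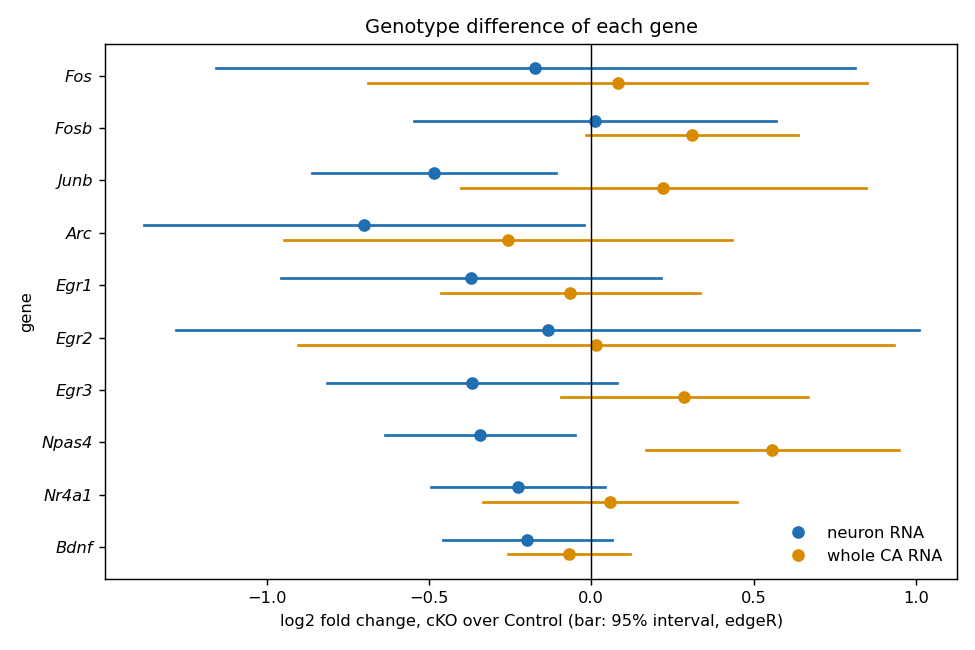
Log2 fold change of each gene, cKO over Control, in both materials, with 95% intervals from edgeR. The intervals of Junb, Arc and Npas4 in neuron RNA lie below 0 and that of Npas4 in whole CA RNA above it, and none of them passed after adjustment.

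Whether the genotype difference depended on the material was tested as an interaction. The materials also differ in depth and mitochondrial share, which cannot be told apart from cell type here. None of the 10 genes passed, where 0.160% of 17523 genes did. All 10 estimates of the neuron difference minus the whole CA difference were below 0, where the median over all genes was -0.0026. Several members varied together between libraries, as described below, so their signs are not independent. Those of Fos and Egr2 reversed in some of the fits without 1 library each. Npas4 had the largest estimate, -0.89 (SE 0.27, unadjusted p = 0.0033, adjusted p = 0.393), the difference in its sign between the materials. Egr3 was the other gene under 0.05 before adjustment (-0.65, SE 0.31, adjusted p = 0.608). DESeq2 called 0 members as well, where it called 75 of 14802 genes. With no filter on low counts Npas4 alone of the members was called (-0.92, SE 0.19, adjusted p = 0.00244), where 69 of 33971 genes were.

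Spread between libraries of one genotype was measured with edgeR's biological coefficient of variation (BCV), the between-library variation left after counting noise. Its median was 11.7% over all genes in neuron RNA and 10.7% in the whole CA. There, Egr2 (50.6%) and Fos (44.0%) stood at the 99.9th percentile of all tested genes, Arc (39.3%) at the 99.6th and Junb (34.9%) at the 99.3rd. Egr1, Nr4a1, Npas4 and Egr3 lay between 21.5% and 22.99%, at percentiles 90.7 to 93.0. Fosb stood at 17.1% (percentile 81.6), and Bdnf at percentile 52.6, close to the median gene.

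Neuron RNA gave the same genes at the top, with Egr2 at 42.9% (percentile 98.7), Fos at 37.5% (98.1) and Arc at 25.9% (92.4). Nr4a1 (11.2%) and Bdnf (11.1%) lay just under the median gene, at percentiles 46.6 and 45.3. The median residual SD of log2 CPM over the members was 0.376 for neurons and 0.438 for the whole CA, against 0.162 and 0.170 over all tested genes. Without neuron cKO 3 the first of these was 0.242.

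**Figure D3:**
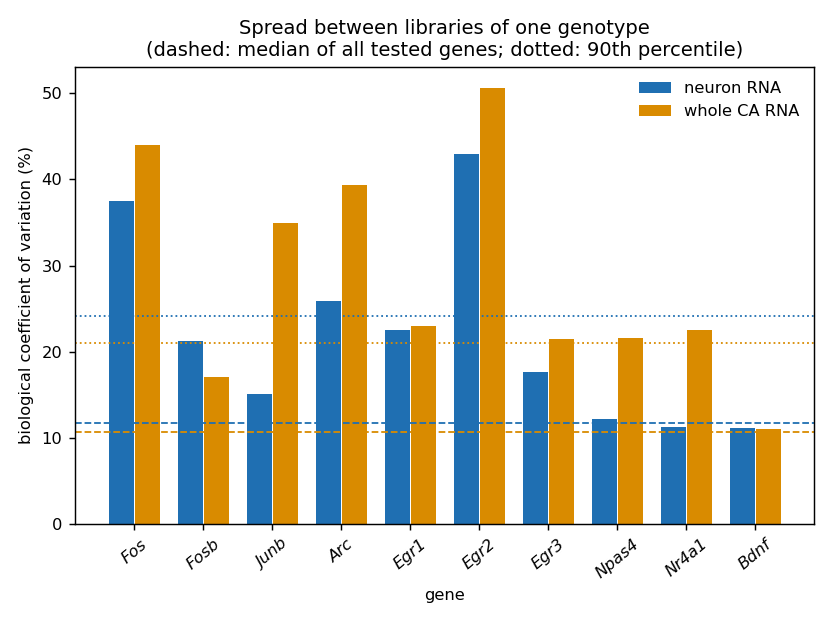
BCV of each gene between libraries of one genotype, in percent, with dashed lines at the median of all tested genes and dotted lines at their 90th percentile in each material. Fos, Egr2 and Arc lie above the 90th percentile in both materials, and Bdnf lies near the median in both.

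The spread was shared between genes. Of the whole CA libraries, Control 4, cKO 5 and cKO 2 were the 3 libraries lowest in Fos, at 2.39, 2.54 and 3.18 CPM. The same libraries were the 3 lowest in Arc, at 41.6, 36.5 and 34.2 CPM, and in Nr4a1, at 36.4, 39.0 and 32.8 CPM. cKO 6, cKO 3 and Control 2 were the 3 highest in Fos, at 12.4, 11.95 and 11.1 CPM, and held 124, 154 and 167 CPM of Arc. Each set holds libraries of both genotypes.

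Over the 12 libraries, after centring each genotype on its mean log2 CPM, Arc followed Fos with Pearson r = 0.97 (permutation p = 1e-05, the smallest that 100000 permutations can give) and Spearman rho = 0.965 (p = 1e-05). Nr4a1 (r = 0.93, p = 2e-05, rho = 0.923), Egr1 (r = 0.92, p = 9e-05, rho = 0.839) and Egr2 (r = 0.90, p = 4e-05, rho = 0.902) came next. After adjustment over all 15361 other genes none was under 0.05 (called: 0.00%), with 0.0768 for Arc and Nr4a1. At this number of permutations an adjusted p under 0.05 needs at least 4 genes at the smallest p. Among all genes these members stood at percentiles 99.94 to 99.99 of r.

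Libraries farthest from the median of Fos were Control 4 and cKO 5, and without them r was 0.95 for Arc, 0.92 for Nr4a1, 0.82 for Egr1 and 0.79 for Egr2. Within the lane of replicates 1 to 3 (6 libraries) the r of these genes ran from 0.94 to 0.97, and within the lane of replicates 4 to 6 from 0.94 to 0.99. Within controls alone it ran from 0.94 to 0.98 and within cKO alone from 0.88 to 0.97. The relation therefore held in each lane and each genotype.

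Other members followed Fos less closely. Junb had r = 0.70 (p = 0.0139, rho = 0.692, adjusted p = 0.632), which was 0.53 without the 2 farthest libraries. Fosb (r = 0.40, rho = 0.357), Egr3 (r = 0.38, rho = 0.385) and Bdnf (r = 0.38, rho = 0.49) had unadjusted p from 0.197 to 0.226. Without the 2 farthest libraries these were 0.03, -0.01 and 0.24. Npas4 had r = 0.24 (p = 0.45, rho = 0.28), with 0.79 in one lane and -0.60 in the other. Whether r differed between Npas4 and Arc was not tested.

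**Figure D4:**
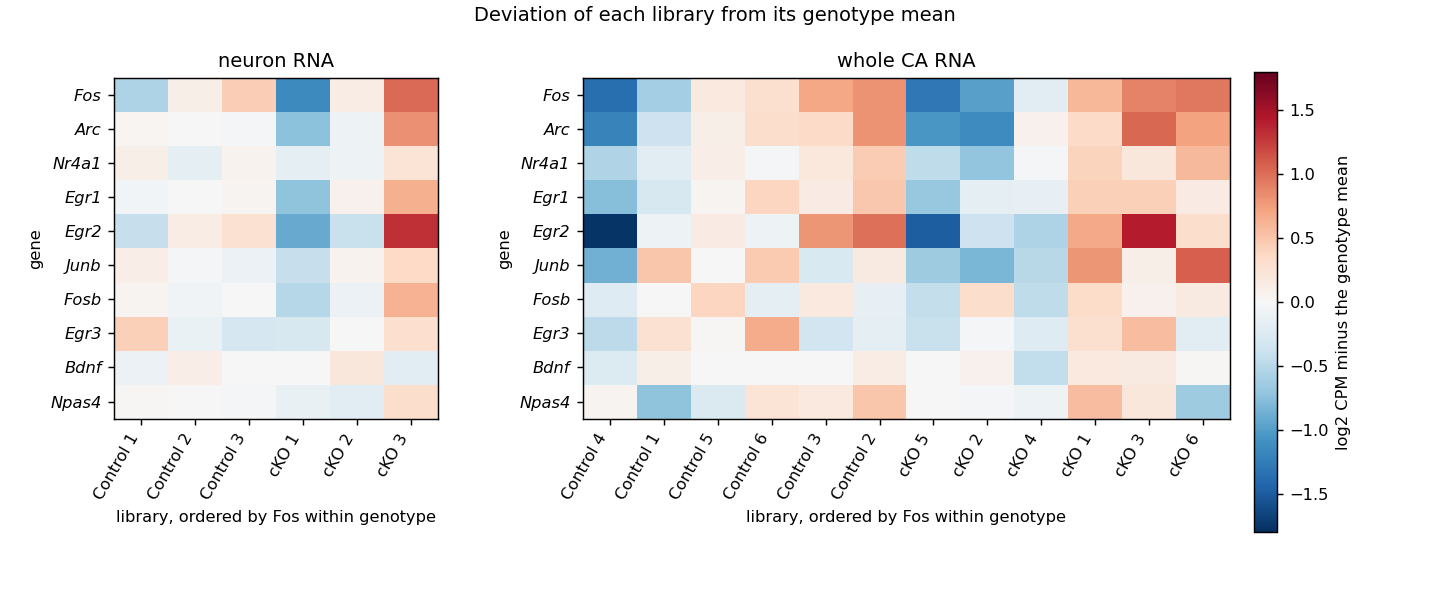
Log2 CPM of each gene minus its genotype mean, by library, with libraries ordered by Fos within each genotype and genes ordered from those that followed Fos most closely to those that followed it least. The upper 5 rows change from blue to red together within each genotype in whole CA RNA, and the rows of Bdnf and Npas4 do not. In neuron RNA cKO 1 is blue and cKO 3 red in most rows.

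The 10 non-member genes whose centred log2 CPM was most like the mean of the members over the 12 libraries were 8030462N17Rik (r = 0.95), Med13l (0.94), Moxd1 (0.94), Dusp6 (0.93), Adm (0.90), Cep164 (0.90), Trio (0.89), Rfx3 (0.88), Snrpd1 (0.88) and Fam160b2 (0.87). Only Dusp6, which encodes an ERK phosphatase, is in the lists of activity-induced genes used here.

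Sequencing lane, read from the names of the deposited libraries, did not pass the test for any member (called over all genes: 0%, with 1562 genes at an unadjusted p under 0.05 and 3 called by DESeq2). All 10 estimates were lower in the lane of replicates 4 to 6, with Egr2 at -1.14 (SE 0.36, adjusted p = 0.431) and Bdnf at -0.21 (SE 0.08, adjusted p = 0.434) under 0.05 before adjustment. Both genotypes had 3 libraries in each lane.

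Other measures that moved with Fos or with the genotype were looked at beside these values, after the values were seen. Summed markers of dentate granule cells (5 of 5 detected) ran from 177 to 219 CPM in whole CA controls and from 115 to 173 CPM in cKO, and from 268 to 288 against 187 to 225 CPM in neuron RNA. They correlated with Fos over the 12 whole CA libraries with r = 0.66 (p = 0.0192, 0.231 adjusted over 12 measures) and rho = 0.566 (p = 0.0594), with 0.72 and 0.83 within the lanes and 0.35 without the 2 farthest libraries. In neuron RNA they were lowest in cKO 1 (187 CPM) and highest among cKO libraries in cKO 3 (225 CPM), the order of Fos, Arc and Egr1. Markers of meninges and choroid plexus (5 of 5 detected) summed to 42.7 to 52.8 CPM in neuron controls and 10.3 to 13.1 CPM in cKO. Only 2 of these 5, Dcn and Ogn, passed the filter on low counts there, and edgeR called both lower. In the whole CA all 5 were tested and Dcn alone of them was called. Other summed markers were lower in cKO without overlap too. In neuron RNA these were excitatory neurons (2929 to 3497 CPM in controls, 2560 to 2927 in cKO), CA1 (635 to 724 against 534 to 605) and CA3 with CA2 (314 to 351 against 268 to 286.5). In the whole CA they were CA3 with CA2 (440.5 to 505 against 348 to 401), microglia (262 to 322 against 233 to 257) and meninges with choroid plexus (53.2 to 95.9 against 18.5 to 24.4). The mitochondrial share had r = 0.21 with Fos (p = 0.514) and total counts r = 0.21 (p = 0.519), the latter 0.95 in one lane and 0.04 in the other. The part of these measures in the members' values was not tested.

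Further rapid activity-induced genes were taken from a list of 25. In neuron RNA 23 were tested, 5 fell and 0 rose, with a median log2 fold change of -0.28. Over all genes there, 2.75% were called in either direction and the median was 0.02. The 5 that fell were Ier2 (-0.97, SE 0.18), Trib1 (-0.83, SE 0.15), Dusp5 (-0.76, SE 0.15), Dusp6 (-0.62, SE 0.13) and Gadd45g (-0.57, SE 0.12), the last named because it completes the count. Dusp5 and Dusp6 encode phosphatases that shut off ERK. Dusp5 went from 21.6 to 23.5 CPM in controls to 9.89 to 15.3 CPM in cKO. Ier2 went from 2.89 to 3.25 CPM to 1.19 to 1.87 CPM. The genotypes did not overlap for any of the 5, as for 12.4% of all genes in this direction. All 25 were tested in the whole CA, where 4.17% of all genes were called. Dusp5 fell there (-0.54, SE 0.11, adjusted p = 0.00632) while the circadian gene Per1 rose (0.40, SE 0.08, adjusted p = 0.00861).

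Later activity-induced effectors, the products that early factors help to switch on, were taken from a list of 15, all tested. In neuron RNA 4 fell and 0 rose, where 2.75% of all genes were called in either direction. Nptx2, which gathers AMPA receptors at synapses on interneurons, went from 29.5 to 37.5 CPM in controls to 14.1 to 17.8 CPM in cKO (log2 fold change -1.11, SE 0.12, adjusted p = 0.00134). The prostaglandin synthase gene Ptgs2 (-0.86, SE 0.16), the neuropeptide precursor gene Vgf (-0.53, SE 0.11) and Nrn1 (-0.46, SE 0.08) fell as well.

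Whole CA values of Ptgs2 had a mean of 43.0 ± 3.65 CPM (SD, n = 6) in controls. In cKO the mean was 22.6 ± 4.24 CPM (SD, n = 6), a fall of -0.93 in log2 (SE 0.10, edgeR adjusted p = 1.38e-05). The genotypes did not overlap, as for 3.08% of all genes in either direction. Nrn1 fell too (-0.32, SE 0.06). Pcsk1 (0.33, SE 0.09), Sorcs3 (0.27, SE 0.06) and Scg2 (0.22, SE 0.06), the last named to complete the count, rose. Of the 15 genes 3 rose and 2 fell in the whole CA, where 4.17% of all genes were called. Nptx2 differed by -0.14 there (SE 0.08, adjusted p = 0.445), and its interaction passed the test (-0.96, SE 0.14, adjusted p = 0.00131).

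Upstream factors that activate early gene promoters (15 genes, among them Creb1, Srf, Crebbp and Mef2c) gave 0 calls in either material, with medians of 0.08 and 0.04 and 2 genes at an unadjusted p under 0.05 in each. Genes for the processing and receptors of Bdnf (8 genes, among them Ntrk2 and Furin) also gave 0, with 2 under 0.05 before adjustment in each material. Over all genes 2.75% were called in neuron RNA and 4.17% in the whole CA. Before adjustment 17.2% and 15.7% of all genes were under 0.05.

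Chromatin was read from the peak lists as the number of bases covered by peaks, so these values are lengths and not heights. H3K4me3 marks active starts, and long domains of it extend into the bodies of highly induced or cell-identity genes. Within 2.5 kb of a start, 3 of the 15 member windows tested (1 each of Nr4a1, Npas4 and Bdnf) were covered over a shorter length in cKO by limma. That is 20% of them, against 25.1% of all 14339 windows. Over each whole gene with 2.5 kb to each side, a window added after values were seen, 5 of the 10 genes were shorter, against 24.1% of 16048 genes. The median log2 difference over those genes was -0.09. All peaks of a genotype were called against a single input library, so input and genotype cannot be told apart.

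Nr4a1 (window chr15:101251402-101277295) was covered over 8099, 8646, 8474 and 8937 bp in Controls 1 to 4. In cKO 1 to 4 it was covered over 3954, 4212, 4198 and 4286 bp. Every cKO library lay far below every control. The log2 difference was -1.02 (SE 0.05, adjusted p = 2.47e-05). Within the lane of replicates 1 to 3 it was -1.01. In the other lane, which held only replicate 4 of each genotype, it was -1.04. The window comes from a gene model that reaches well upstream of the start used above. Within 2.5 kb of that start alone the log2 difference was -0.37 (SE 0.03, limma adjusted p = 0.000242).

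Npas4 (window chr19:4981853-5005939, from a gene model that reaches well upstream of the start used above) was covered over 8397, 9664, 9727 and 8634 bp in controls. In cKO it was covered over 4113, 6024, 5924 and 4789 bp. The groups did not overlap, with a log2 difference of -0.81 (SE 0.13, adjusted p = 0.00265). Within 2.5 kb of the Npas4 start alone it was -0.45 (SE 0.05, limma adjusted p = 0.00107).

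The side on which cover was lost is visible around the starts. Within 12 kb after the Npas4 start, peaks covered 4286 to 4921 bp in controls and 1280 to 1657 bp in cKO, while the 12 kb before it held 3123 to 4634 and 2408 to 4182 bp, overlapping. At Nr4a1 the bases after the start numbered 4207 to 4956 in controls and 1677 to 1721 in cKO, and those before it 2461 to 2854 and 1158 to 1253. Within these 12 kb, cover was thus shorter on both sides of the Nr4a1 start and, at Npas4, after it. The unbroken run of cover that held the Nr4a1 start reached 775 to 910 bp before it in controls and 806 to 903 bp in cKO. After the start that run reached 3442 to 4846 bp in controls and 1487 to 1720 bp in cKO. Junb was also covered over fewer bases after its start in cKO, 5064 to 5568 against 5706 to 5850 bp, without overlap, and Fos over 2197 to 2775 against 2587 to 3233 bp, with overlap. Sides were compared by their ranges, with no test, and the 12 kb after each start run past the end of the gene. Of the 2001 bp within 1 kb of the start, controls had 1946 to 2001 bp covered at Npas4 and cKO all 2001 bp, and at Nr4a1 1776 to 1911 against 1807 to 1904 bp. The kilobase to each side of the start was nearly filled in both genotypes. In a window of 1 kb to each side 0 members were called, where only 138 of all 13894 windows were.

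**Figure D5:**
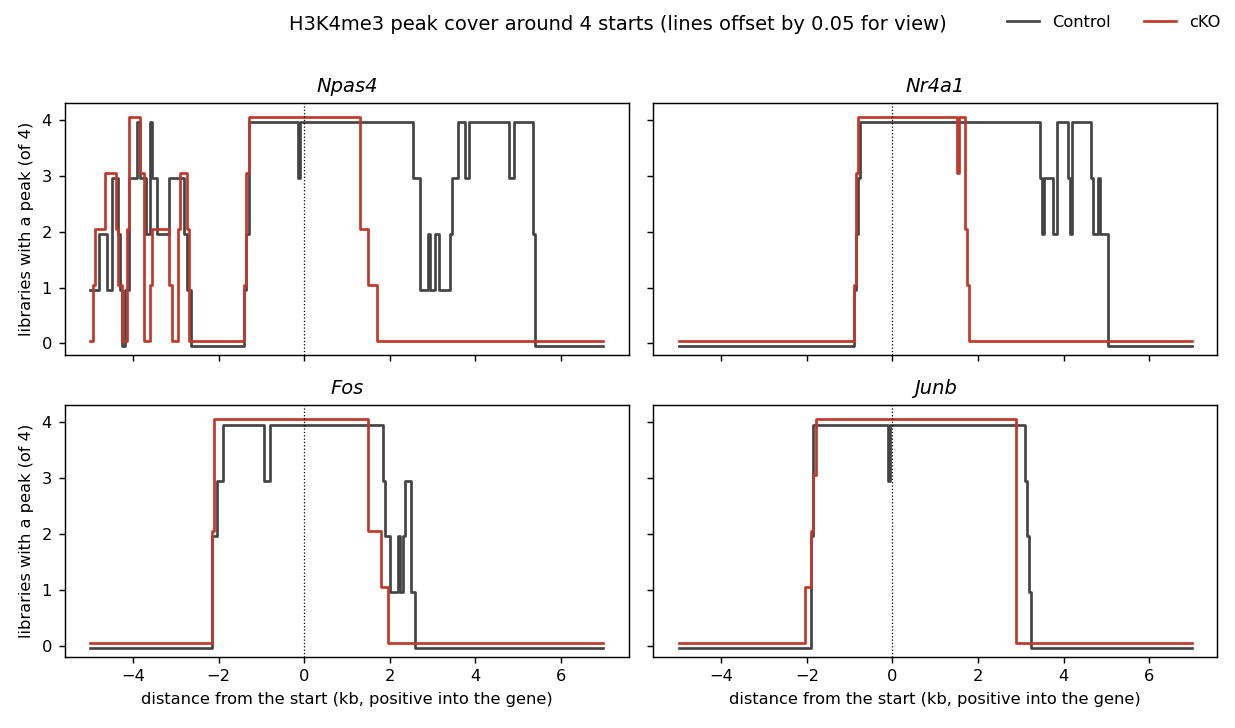
Number of libraries, of 4 in each genotype, with an H3K4me3 peak at each distance from the start of Npas4, Nr4a1, Fos and Junb. Distances are in kb, positive after the start in the direction of transcription, and can run past the end of the gene. At Npas4 and Nr4a1 cover in cKO ends sooner after the start than in Control, and at Fos and Junb the outlines differ less, with cover after the start also ending somewhat sooner in cKO.

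Arc (window chr15:74666581-74675070) was covered over 5916, 5884, 6383 and 6175 bp in controls and over 3504, 4285, 4752 and 4296 bp in cKO (log2 difference -0.53, SE 0.09, adjusted p = 0.00357). Egr1 was covered over 5285, 5388, 5465 and 5455 bp in controls and over 3962, 3966, 4096 and 4152 bp in cKO (-0.41, SE 0.04, adjusted p = 0.000285). Bdnf was covered over 10159 to 10911 bp in controls and 9175 to 9908 bp in cKO (-0.15, SE 0.05, adjusted p = 0.0425), a call lost on leaving out each of 7 of the 8 libraries in turn (adjusted p from 0.0455 to 0.109 over the 8). For all 3 genes the groups did not overlap, as for 27.9% of all genes in this direction. Of the 7 Bdnf starts, that at position 109694409 was the one called (-0.24, SE 0.06, adjusted p = 0.02). That call was lost without Control 2 (adjusted p = 0.052), Control 3 (0.0503) or Control 4 (0.052), which leaves 2 windows called. No peak lay at the starts at 109709383 and 109722921 in any library.

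Egr3 (-0.11, adjusted p = 0.0708), Fos (-0.14, adjusted p = 0.118), Junb (-0.07, adjusted p = 0.254), Fosb (0.04, adjusted p = 0.67) and Egr2 (0.00, adjusted p = 0.994) did not pass. Egr3 was covered over 6271 to 6493 bp in controls and 5814 to 6014 bp in cKO. Its groups did not overlap, as for 27.9% of all genes in this direction. Fos was covered over 4015 to 4407 bp in controls and 3632 to 4042 bp in cKO, with overlap. Egr2 was covered over 4206 to 4637 and 4353 to 4541 bp. The standard errors of these 5 lay between 0.04 and 0.06, so differences of the size seen at Nr4a1 lie outside their intervals.

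The remaining marks gave fewer calls. H3K4me1, which flanks promoters and marks enhancers, covered more of Junb in cKO, 6019 to 6840 against 4242 to 5393 bp (log2 difference 0.43, SE 0.10, adjusted p = 0.0447). That was 1 of 10 members over whole genes, against 0.999% of all genes, and the call was lost on leaving out each of 7 of the 8 libraries in turn (adjusted p from 0.0437 to 0.112 over the 8). At starts it called 0 members (all windows: 3.32%). H3K27ac, a mark of active enhancers and promoters, called 0 of 10 over genes (all genes: 0.333%) and 0 at starts (0.337%). H3K9ac called 0 over genes (0.302%) and 0 at starts (0.955%).

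Fos had the lowest unadjusted p of the members for both acetyl marks at starts. Its H3K27ac cover was 2239 to 3250 bp in controls and 1257 to 1787 bp in cKO (-0.75, SE 0.16, adjusted p = 0.15), with no overlap, as for 11.6% of windows in this direction. Its H3K9ac cover was 3220 to 3419 bp in controls and 2549 to 2878 bp in cKO (-0.27, SE 0.06, adjusted p = 0.101), again without overlap (14.9% of windows), as was that of Npas4 at 3413 to 3932 against 2817 to 3130 bp (-0.28, adjusted p = 0.119). H3K9ac at the Nr4a1 start went the other way, over 2989 to 3350 bp in controls and 3360 to 3522 bp in cKO. The groups did not overlap (0.10, adjusted p = 0.439). Over the Nr4a1 gene H3K9ac was lower (-0.50 to -0.26 without 1 library each), as was H3K27ac (-0.54 to -0.33). H3K27ac at the Nr4a1 start was also lower, at 3254 to 3588 against 3603 to 3855 bp in controls (-0.135, limma adjusted p = 0.414), without overlap. Egr1 was likewise lower without overlap over the gene, at 3804 to 4296 against 4841 to 5451 bp for H3K27ac (-0.33, adjusted p = 0.227; no overlap in 10.9% of genes) and 2915 to 3707 against 4415 to 4865 bp for H3K9ac (-0.43, adjusted p = 0.154; 9.56%).

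Length of H3K4me3 and RNA level can be set side by side for the 5 genes called in cover. The log2 fold changes of their neuron RNA were -0.22 for Nr4a1, -0.34 for Npas4, -0.70 for Arc, -0.37 for Egr1 and -0.20 for Bdnf. Those of whole CA RNA were 0.06, 0.56, -0.26, -0.06 and -0.07. Among the genes not called in cover, neuron RNA estimates of Junb, Egr3, Fos and Egr2 were also lower in cKO, and that of Fosb was not. The Junb estimate was lower than those of Nr4a1, Npas4, Egr1 and Bdnf. None of these RNA differences passed the test, and no relation between cover and RNA was tested over 10 genes.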

How the data were processed

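Gene counts per library were deposited by the authors as whole-number counts. Peaks were called by the authors with MACS2, per the file headers, in versions 2.1.1.20160309 (H3K4me3) and 2.1.0.20140616, each with a −log10 q-value (threshold of q 0.1) and a peak length. Builds mm10 and GRCm38 are named in the submitters' processing notes. The aligner, the gene counter and strandedness are not given in the sources used here. Genes were filtered with filterByExpr, scaled by TMM and tested within each material with edgeR 4.0.16 (R 4.3.3), with Benjamini-Hochberg adjustment over all genes tested. Log2 CPM used a prior count of 2. Bases covered by peaks were compared with limma 3.58.1 on log2(bp + 100), within 2500 bp of RefSeq starts (GRCm38.p6) or over genes, where 3 or more libraries had a peak. DESeq2 1.42.0, other scalings, no filter and each library left out were tried as alternatives. The steps were tested on simulated data: with log2 changes of 1, edgeR recovered 91% of 100 changed genes among 19622 in neuron RNA and 100% among 15362 in the whole CA. The members and lists were chosen with earlier results of these data known. Of non-members, the text names called genes of each list, at most 4 per list and material by size (1 more per list was added after its values were seen), and the 10 genes most like the members.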

Additional observations from a re-analysis of the deposited data

Results flagged for a closer look

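In 40 groups of 6 RNA or 4 H3K4me3 libraries examined for a single library far from the others, 2 were found, and chance flags about 1 in 20. Bdnf in whole CA RNA had its lowest cKO value in cKO 4, at 38.01 CPM, while the other 5 cKO libraries lay between 51.7 and 57.9 CPM. Junb had its lowest control cover of H3K4me3 over the gene in Control 2, at 4913 bp, while the other 3 controls lay between 5046 and 5072 bp.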

How the results depend on the processing

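The count of called members ran from 0 to 3 in neuron RNA over the fits without 1 library each. The 3 came without cKO 3, where 479 of 19867 genes were called. In whole CA RNA the count ran from 0 to 1. It was 1, Npas4, with no filter on low counts (adjusted p = 0.0241), with DESeq2, without cKO 6 and without both libraries that held Xist. These fits called 662 of 28782, 891 of 14766, 556 of 15456 and 496 of 15383 genes. With no filter 1 member was called for the interaction and 3 for the lane, where the genes called over all rose from 28 to 69 and from 0 to 253. DESeq2 called 840 genes against 539 in neuron RNA and 75 against 28 for the interaction, and the fits without 1 neuron library called 207 to 482. The members' median residual SD ran from 0.242 to 0.431 in neuron RNA without 1 library each.

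Small log2 fold changes reversed. Without 1 library each, neuron values ran from -0.79 to 0.23 for Fos, -0.36 to 0.24 for Fosb and -1.13 to 0.25 for Egr2. Without reversing, they ran from -1.22 to -0.40 for Arc, -0.74 to -0.09 for Egr1, -0.53 to -0.13 for Egr3, -0.67 to -0.30 for Junb, -0.52 to -0.26 for Npas4, -0.36 to -0.15 for Nr4a1 and -0.31 to -0.10 for Bdnf. Whole CA values ran from -0.12 to 0.27 for Fos, -0.05 to 0.36 for Junb, -0.18 to 0.05 for Egr1, -0.39 to 0.25 for Egr2, -0.07 to 0.17 for Nr4a1 and -0.11 to 0.01 for Bdnf, and interactions from -0.86 to 0.15 for Fos and -1.13 to 0.26 for Egr2. In the lane of replicates 1 to 3 Fos was -0.03, Egr1 0.05 and Nr4a1 -0.11, and in the other lane Egr2 and Egr3 were -0.11. Without both libraries that held Xist, Fos was -0.29, Junb -0.18, Egr2 -0.20 and Nr4a1 -0.16. Correlations with Fos reversed for Egr3 (-0.01 without the 2 farthest libraries), Fosb (-0.33 in the first lane) and Npas4 (-0.60 in the other lane, -0.01 in the 6 cKO libraries). The cause was not tested.

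For mark lengths, H3K4me3 called 0 members within 1 kb of starts, where it called 138 of all 13894 windows, and 5 over whole genes. Within 1 kb Fos was 0.03 and Fosb, Npas4 and Nr4a1 were 0.01. H3K4me1 called 1 over whole genes, and 0 to 1 without 1 library each, at starts and over genes. H3K4me3 values without 1 library each ran from -0.01 to 0.01 for Fosb and 0.00 to 0.02 for Junb at starts, and from -0.03 to 0.02 for Egr2 over the gene.

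Replicate numbers shared between genotypes did not pair the libraries: same-numbered deviations correlated from -0.06 to 0.29 in neuron RNA and from -0.06 to 0.20 in the whole CA. With a replicate block, members called stayed at 0 in both materials, Fosb was -0.04 in neuron RNA, Egr2 was -0.02 in the whole CA and 327 genes were called in neuron RNA. The block gave 0 members for H3K4me1 over genes and 2 for H3K4me3 at starts. Low counts limit Egr2, with as few as 6 counts in a whole CA library and 22 in a neuron library.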
